A study of Mus musculus with 6 samples.

Results

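The genes described here encode the ITAM co-stimulatory receptor pathway of osteoclast precursors: 3 receptors (Oscar, Trem2 and Siglec15), the 2 ITAM adaptors through which such receptors signal (Tyrobp, also called DAP12, and Fcer1g, the Fc receptor gamma chain), and the signalling proteins behind them (Syk, Btk, Tec, Blnk and Plcg2). The 10 members were chosen by symbol from the 26106 genes of the deposited table, and all 10 were found there and passed the filter on low counts. The libraries held mRNA of wild-type macrophages grown from the marrow of C57BL/6 mice, all male and 6 weeks old. All cultures received 10% serum, M-CSF at 30 ng/mL and RANKL, the cytokine that drives osteoclast formation, at 100 ng/mL. Ctrl cultures (n = 3) had no ZM, and ZM cultures (n = 3) also had 10 µM ZM, named in the series title as ZM-306416, an inhibitor of VEGF receptor kinases. Which kinases it inhibited in these cells at this dose was not tested. Cells were taken for RNA after 2 days. The labels put all 6 libraries in 1 batch, name no vehicle for Ctrl, and do not say whether replicates were separate mice or dishes. The p-values therefore cover the scatter among these libraries alone, and that scatter may be technical.

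RANKL alone does not give a macrophage the sustained calcium signal that osteoclast formation needs. The second signal comes from receptors with short tails that associate, through charged residues in the membrane, with an adaptor carrying an immunoreceptor tyrosine-based activation motif (ITAM). Src-family kinases phosphorylate the tyrosines of the motif, Syk docks on them, and Tec-family kinases with the linker Blnk bring phospholipase C gamma into action, which raises calcium and activates the transcription factor NFATc1. OSCAR, a collagen receptor, associates with the Fc receptor gamma chain, whereas TREM2, a lipid and lipoprotein receptor, and Siglec-15, a sialic acid receptor, associate with DAP12.

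The motif that gives the pathway its name is shown as the coding sequence of the 2 adaptors, since Oscar, Trem2 and Siglec15 are known to signal through one or the other of them. Capitals mark, in this order, the codons of the first tyrosine, the leucine of its box, the tyrosine of the other box and its leucine, with 7 codons between the boxes.
Tyrobp: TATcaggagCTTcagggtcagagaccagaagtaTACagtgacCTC
Fcer1g: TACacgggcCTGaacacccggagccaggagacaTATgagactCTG
Each stretch is 45 bases of coding sequence read 5′ to 3′ from GENCODE M21 transcripts on GRCm38. The Tyrobp stretch covers codons 92 to 106 of 114 and lies across an exon junction within chr7:30415670-30417382 on the forward strand. The Fcer1g stretch covers codons 65 to 79 of 86 and lies across a junction within chr1:171229889-171230072 on the reverse strand. For Fcer1g, 1 of 2 complete coding transcripts held the motif. The counts are per gene and do not separate these transcripts. The other 8 members held no such motif in any complete coding transcript. The search was for a tyrosine followed 3 codons on by leucine or isoleucine, then 6 to 8 codons, then the same box again, and 2.92% of 21584 protein-coding genes held a match.

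Total counts were 45512004 to 54256377 per library. In the composition factors (TMM) that scale them, ZM replicate 3 had 0.919 and the other 5 libraries 0.995 to 1.03. ZM replicate 3 stood apart from the other ZM libraries, and for 8 of the 10 members it was the ZM library farthest from the Ctrl mean. Values without it are given beside the members' results. Levels are TMM-scaled CPM (each count relative to the library's total), and a gene was called changed when its adjusted p from edgeR's quasi-likelihood test, over all 15590 genes tested, was under 0.05. By this rule 1711 genes (11.0%) were called, of which 863 (5.54%) were higher and 848 (5.44%) lower with ZM.

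The question was how the receptors, adaptors and kinases of the pathway stood in RANKL-stimulated cells with and without the inhibitor. The transcripts of 2 of the 3 receptors fell, Oscar 9.69-fold and Siglec15 10.1-fold, against a background of 5.44% of all genes called lower. Trem2 and both adaptors had higher means in ZM without passing the test, and the log2 folds of the 5 signalling genes lay between -0.20 and 0.12. No member was called higher by edgeR, against a background of 5.54%. At an unadjusted p under 0.05 there were 3 such members (Trem2, Tyrobp and Fcer1g) against 17.3% of all genes. With DESeq2 there were 3 against 11.0%, and with limma-voom 0 against 4.71%. Both fallen receptors were called by each of these rules, against 14.8%, 10.2% and 5.75% of all genes called lower. The groups did not overlap for 3 members higher with ZM and 3 lower, among them Btk, where 42.9% of all genes tested showed no overlap (21.5% higher, 21.4% lower).

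**Figure D1:**
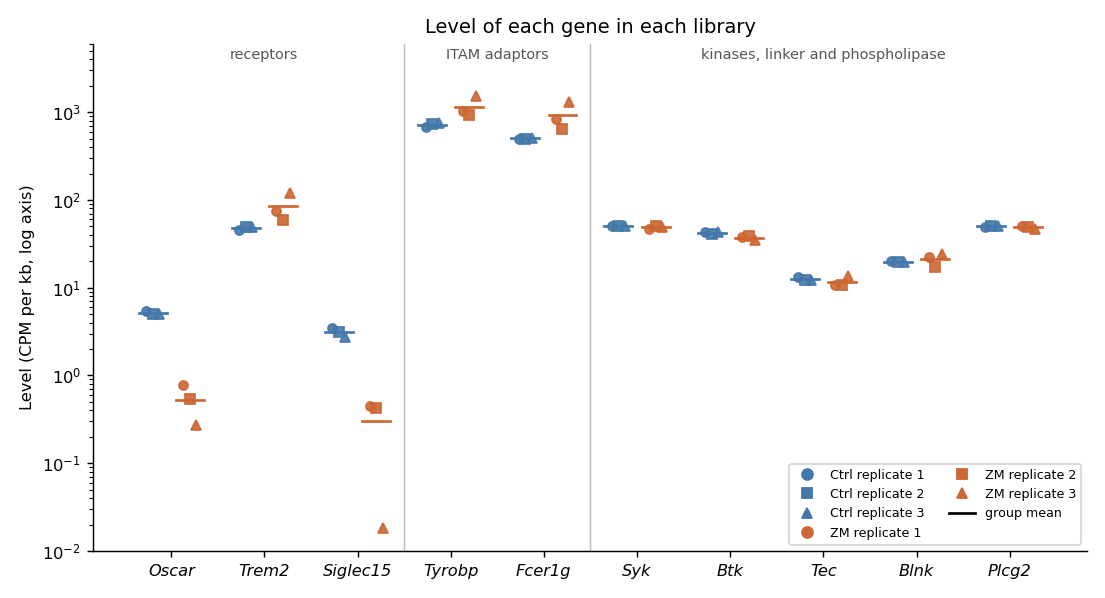
Level of each of the 10 genes in each library, in CPM per kb of gene length on a log axis, with Ctrl in blue, ZM in orange, the replicate number as the marker and the group mean as a line. Oscar and Siglec15 are lower in every ZM library, Trem2, Tyrobp and Fcer1g are higher in every ZM library, and the other 5 genes lie close to their Ctrl level.

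Oscar (ENSMUSG00000054594, a protein-coding gene at chr7:3609813-3616157 of GRCm38, reverse strand) encodes the osteoclast-associated receptor. Its level was 10.2, 9.17 and 9.29 CPM across Ctrl replicates 1 to 3, against 1.43, 0.993 and 0.508 CPM across ZM replicates 1 to 3. Every ZM library was below every Ctrl library, and ZM replicate 3 was the lowest. The mean dropped from 9.54 ± 0.537 to 0.976 ± 0.460 CPM (SD, n = 3 per group), which is 9.69-fold lower (log2 fold -3.28, SE 0.33, 95% interval -4.04 to -2.52, adjusted p = 0.00312). The counts behind these levels were 467 to 474 in Ctrl and 77, 52 and 24 in ZM. Without ZM replicate 3 the log2 fold was -2.97. The call held without any single library, with adjusted p of 2.4e-05 to 0.0280.

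Siglec15 (ENSMUSG00000091055, protein coding, chr18:78043614-78057395, reverse strand) encodes a sialic acid-binding lectin that acts in osteoclast fusion and maturation. It was measured at 4.01, 3.61 and 3.14 CPM in the Ctrl libraries and at 0.519, 0.497 and 0.0212 CPM across ZM replicates 1 to 3. The groups did not overlap, and ZM replicate 3 held a single count against 28 and 26 in ZM replicates 1 and 2 and 158 to 187 in Ctrl. The mean fell from 3.59 ± 0.432 to 0.346 ± 0.281 CPM, 10.1-fold lower (log2 fold -3.34, SE 0.64, 95% interval -4.83 to -1.86, adjusted p = 0.0222). Without ZM replicate 3 the log2 fold was -2.81 (adjusted p = 1.2e-04). The call was lost when any one Ctrl library was left out (adjusted p = 0.0949 to 0.104), and likewise without ZM replicate 1 (0.0595). With limma-voom the log2 fold was -4.06 (adjusted p = 0.0238). The intervals of Siglec15 and Oscar overlap.

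Trem2 (ENSMUSG00000023992, protein coding, chr17:48346401-48354147, forward strand) is expressed by macrophages in many tissues and by osteoclast precursors. It was measured at 227, 246 and 245 CPM across Ctrl replicates 1 to 3, against 371, 296 and 594 CPM across ZM replicates 1 to 3. All ZM libraries lay above all Ctrl libraries, but they were spread over a much wider range. The means were 239 ± 10.4 and 420 ± 155 CPM (log2 fold 0.81, SE 0.23, 95% interval 0.27 to 1.36, adjusted p = 0.0658), which was not called. Without ZM replicate 3 the log2 fold was 0.48 with a smaller adjusted p of 0.0107. With any Ctrl library left out, the adjusted p lay between 0.192 and 0.219.

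The sequence before the transcription start is shown for Oscar and Trem2, receptors whose ZM means lay on opposite sides of Ctrl, as windows of 250 bases each. Capitals mark matches to 4 motifs on either strand: GGAAA (core of NFAT sites), GAGGAA (PU.1), TGANTCA (AP-1) and TCANNTGA (an E-box of the MiT factors). The NFAT and PU.1 letters can overlap each other.
Oscar, chr7:3616158-3616407, reverse strand: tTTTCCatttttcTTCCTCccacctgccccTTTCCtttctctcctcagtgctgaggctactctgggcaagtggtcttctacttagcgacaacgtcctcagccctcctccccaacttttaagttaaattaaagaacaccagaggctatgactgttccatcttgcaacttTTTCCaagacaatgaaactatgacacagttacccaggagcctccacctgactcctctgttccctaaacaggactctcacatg
Trem2, chr17:48346151-48346400, forward strand: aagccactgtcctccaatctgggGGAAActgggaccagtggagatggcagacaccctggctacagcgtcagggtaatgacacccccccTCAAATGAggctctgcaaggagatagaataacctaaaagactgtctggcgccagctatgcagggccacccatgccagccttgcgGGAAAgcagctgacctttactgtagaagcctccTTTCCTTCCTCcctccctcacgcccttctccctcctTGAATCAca
The sequences are from RefSeq on GRCm38.p6 and are written in the direction of transcription. The Oscar window held the GGAAA letters 3 times, at positions -249, -220 and -82 from the start, all on the opposite strand, and the GAGGAA letters once, at -237. The Trem2 window held GGAAA 3 times, GAGGAA once, TGANTCA once at -9 and TCANNTGA once at -162. Among 32851 promoter windows of this length, 55.6% held GGAAA, 23.3% GAGGAA, 6.75% TGANTCA and 7.09% TCANNTGA. Matches that run past the start were not searched for, and the last letters of the Oscar window could begin a TCANNTGA match. These are matches of letters and not measured binding sites.

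Of 7 transcription factors reported at the Oscar promoter, 1 was called higher and 1 lower, with a median log2 fold of 0.41. Over all genes tested, the shares were 5.54% and 5.44%. Nfatc1, the factor at the head of the osteoclast programme, fell from 260 ± 14.4 to 75.2 ± 10.8 CPM (log2 fold -1.79, adjusted p = 0.00153). Tfe3, a MiT factor, rose from 117 ± 3.83 to 165 ± 21.6 CPM (adjusted p = 0.0366), a call lost when any one Ctrl library or ZM replicate 1 was left out (adjusted p = 0.0806 to 0.170). The other 5 (Mitf, Spi1, Tfeb, Usf1 and Usf2) were not called. Spi1, which encodes PU.1, had means of 549 ± 26.3 and 641 ± 130 CPM in Ctrl and ZM (adjusted p = 0.327), and Mitf of 103 ± 1.65 and 91.7 ± 9.93 CPM (adjusted p = 0.282).

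The adaptors were the most abundant members per length. The length was that of all annotated exons of a gene, 667 bases for Tyrobp, 874 for Fcer1g and 4946 for Trem2. The coding sequence of Trem2 has 747 bases. Where the transcript made is shorter than all exons together, the level per kb is too low. Which transcripts were made was not tested, so the order between genes, above all the place of Trem2, is uncertain. In Ctrl, Tyrobp was at 722 ± 34.5 and Fcer1g at 502 ± 7.99 CPM per kb, whereas Syk, Plcg2 and Trem2 lay between 48.3 and 51.0 CPM per kb and Btk at 42.6 ± 1.33. Blnk (19.7 ± 0.325) and Tec (12.7 ± 0.589) followed, then Oscar (5.17 ± 0.291) and Siglec15 (3.10 ± 0.374). Of neighbours in this order, Plcg2 and Trem2 had overlapping library values and the others did not. In ZM the order was the same except that Trem2, at 85.0 ± 31.3 CPM per kb, stood above Syk (49.1 ± 1.98) and Plcg2 (48.8 ± 1.91). The library values of Tyrobp and Fcer1g overlapped in ZM, as did those of Syk and Plcg2 and of Oscar and Siglec15.

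Tyrobp (ENSMUSG00000030579, protein coding, chr7:30413760-30417585, forward strand) was measured at 455, 492 and 497 CPM across Ctrl replicates 1 to 3, against 687, 613 and 1026 CPM across ZM replicates 1 to 3. The groups did not overlap, and ZM replicate 3 stood well above the other ZM libraries. The means were 481 ± 23.0 and 776 ± 220 CPM (log2 fold 0.69, SE 0.19, 95% interval 0.25 to 1.13, adjusted p = 0.0572). The difference was not called. Without ZM replicate 3 the log2 fold was 0.44 (adjusted p = 0.00541), and with any Ctrl library left out the adjusted p lay between 0.179 and 0.209.

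Fcer1g (ENSMUSG00000058715, protein coding, chr1:171229572-171234365, reverse strand), shared with the IgG and IgE Fc receptors, was measured at 434, 436 and 447 CPM in Ctrl replicates 1, 2 and 3. In ZM replicates 1, 2 and 3 it was at 724, 569 and 1144 CPM. The coefficient of variation was 1.59% in Ctrl and 36.6% in ZM, and the groups did not overlap. The log2 fold was 0.89 (SE 0.23, 95% interval 0.34 to 1.43, adjusted p = 0.0519), and 0.56 without ZM replicate 3 (adjusted p = 0.00518). With any Ctrl library left out, the adjusted p lay between 0.173 and 0.183. Trem2, Tyrobp and Fcer1g had the same order of ZM libraries, with replicate 2 the lowest and replicate 3 the highest.

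**Figure D2:**
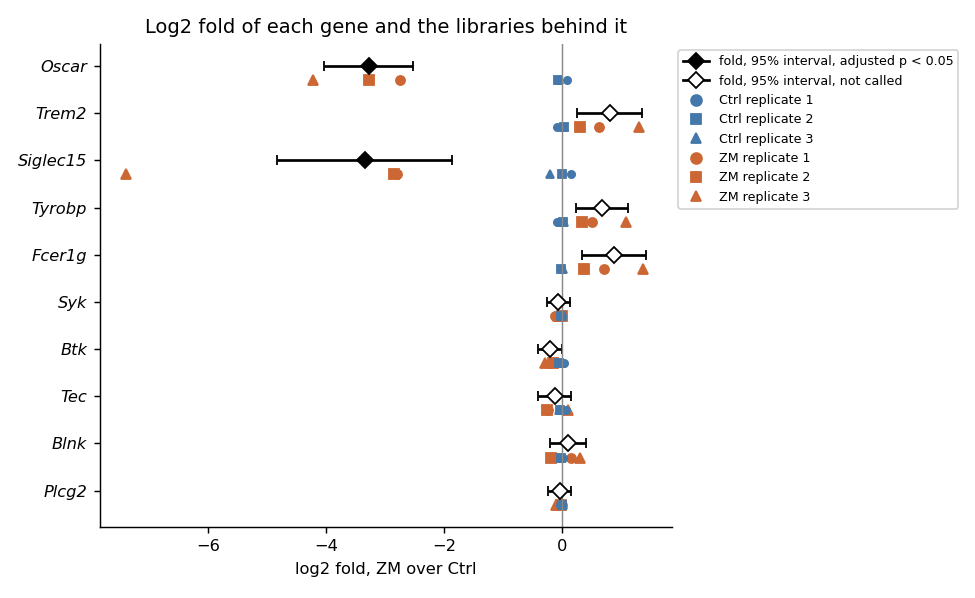
Log2 fold of ZM over Ctrl for each gene with its 95% interval (diamonds, filled where the adjusted p was under 0.05), and below it each library's log2 CPM relative to the Ctrl mean. Oscar and Siglec15 are filled, at -3.28 and -3.34, and the single count of Siglec15 in ZM replicate 3 lies at -7.40.

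The kinases, the linker and the phospholipase behind the adaptors showed no called difference. Among these 5 genes none passed in either direction with edgeR, at an unadjusted p under 0.05, with DESeq2 or with limma-voom. Syk (ENSMUSG00000021457, chr13:52583173-52648792, forward strand), the kinase that docks on the phosphorylated ITAM, was at 479, 476 and 478 CPM in the Ctrl libraries and at 442, 479 and 459 CPM across ZM replicates 1 to 3. The groups overlapped, and the log2 fold was -0.05 (95% interval -0.25 to 0.14, adjusted p = 0.666). With an offset for gene length, an alternative chosen after seeing the data, the log2 fold of Syk turned to 0.20.

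Plcg2 (ENSMUSG00000034330, chr8:117498291-117635142, forward strand), the phospholipase C gamma isoform of blood cells, was at 211, 216 and 217 CPM in the Ctrl libraries and at 216, 213 and 200.4 CPM across ZM replicates 1 to 3, so that the groups overlapped. Its log2 fold was -0.03 (95% interval -0.22 to 0.16, adjusted p = 0.801), and its sign turned without ZM replicate 3 (0.000467). Btk (ENSMUSG00000031264, chrX:134542336-134583570, reverse strand), a Tec-family kinase, was at 137, 129 and 135 CPM across Ctrl replicates 1 to 3, against 118, 121 and 110 CPM across ZM replicates 1 to 3. Its groups did not overlap, but the difference was small (log2 fold -0.20, 95% interval -0.40 to 0.000539, adjusted p = 0.157).

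Tec (ENSMUSG00000029217, chr5:72755716-72868483, reverse strand), the kinase for which the family is named, had means of 47.4 ± 2.21 and 43.8 ± 6.22 CPM in Ctrl and ZM. The log2 fold was -0.11 (95% interval -0.40 to 0.17, adjusted p = 0.526), with 40.5 and 39.9 CPM in ZM replicates 1 and 2 against 51.0 CPM in ZM replicate 3, and -0.24 without that library (adjusted p = 0.0550). Blnk (ENSMUSG00000061132, chr19:40928927-40994535, reverse strand), the scaffold that links Syk to phospholipase C gamma, was at 120.2, 117 and 117 CPM in the Ctrl libraries and at 132, 105 and 147 CPM across ZM replicates 1 to 3 (log2 fold 0.12, 95% interval -0.19 to 0.42, adjusted p = 0.556). ZM replicate 2 lay below the Ctrl libraries for Blnk and the other ZM libraries above them.

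Receptors were set against the adaptors in each library, as log2 ratios of CPM per kb. Oscar was also set against Tyrobp, with which it is not known to pair, and the adaptors against each other. Oscar over Fcer1g was -6.47, -6.62 and -6.64 across Ctrl replicates 1 to 3, against -9.89, -10.00 and -11.8 in ZM replicates 1, 2 and 3. The mean ratio was lower by a difference of -3.97, beside a log2 fold of -3.28 for Oscar and 0.89 for Fcer1g themselves. Siglec15 over Tyrobp had means of -7.82 ± 0.234 in Ctrl and -11.8 ± 1.65 in ZM. Trem2 over Tyrobp, in contrast, had means of -3.90 ± 0.0118 and -3.80 ± 0.131 and the groups overlapped. By the exact two-sided permutation test, the ratios of Oscar over Fcer1g, Oscar over Tyrobp and Siglec15 over Tyrobp reached p = 0.1, the smallest that 3 against 3 libraries allow (0.167 adjusted over the 5 ratios computed). For Trem2 over Tyrobp the exact p was 0.4, and for Tyrobp over Fcer1g, with means of 0.52 ± 0.0577 and 0.35 ± 0.135, it was 0.2. No ratio could therefore pass a threshold of 0.05. Without ZM replicate 3 the differences were -3.37 for Oscar over Fcer1g, -3.25 for Oscar over Tyrobp, -2.996 for Siglec15 over Tyrobp, 0.04 for Trem2 over Tyrobp and -0.12 for Tyrobp over Fcer1g. With a pseudocount of 1 in place of 0.1 CPM per kb, the 3 ratios of Oscar and Siglec15, in the same order, differed by -2.85, -2.68 and -2.33. The level of each ratio depends on the gene lengths used. Without division by length, the difference between groups was -4.09 for Oscar over Fcer1g and 0.10 for Trem2 over Tyrobp.

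**Figure D3:**
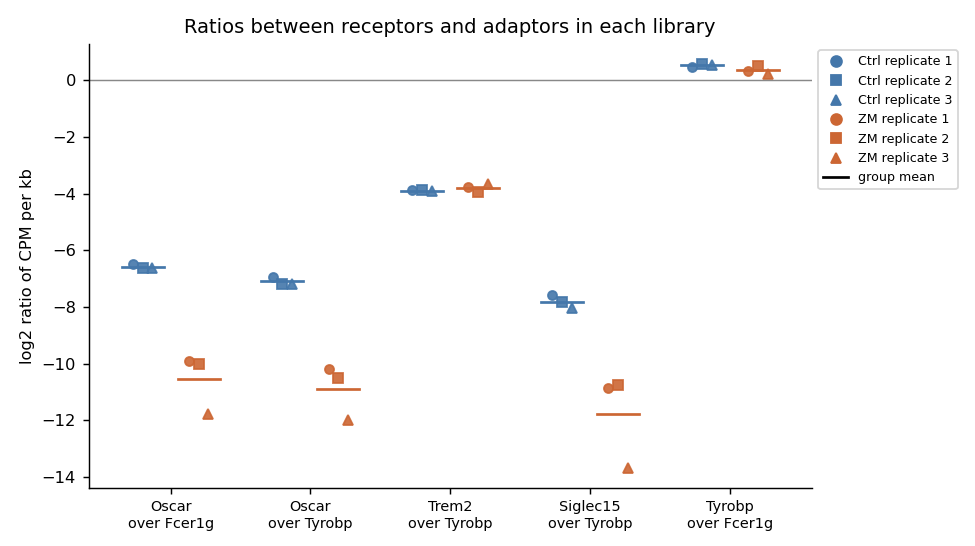
Log2 ratio of CPM per kb between receptors and adaptors in each library, Ctrl in blue and ZM in orange, with the group mean as a line. The ratios of Oscar and Siglec15 to the adaptors differ between ZM and Ctrl by -3.97 to -3.80 on the log2 scale, while that of Trem2 to Tyrobp lies near -3.9 in Ctrl and -3.8 in ZM.

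Among the 3 receptors together, summed per kb, Trem2 made up 83.7% to 86.4% in the Ctrl libraries and 98.4% to 99.8% in the ZM libraries. The share of Oscar was 9.14 ± 0.771% in Ctrl and 0.708 ± 0.420% in ZM, and that of Siglec15 5.50 ± 0.785% and 0.436 ± 0.369%. The summed adaptors stood at 21.6 ± 0.304 times the summed receptors in Ctrl and 24.6 ± 1.09 times in ZM, and the groups did not overlap. The sizes of these shares and sums depend on the 4946 bases of exon length used for Trem2.

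The marker genes moved with these results. They were chosen after their values were seen, so the counts that follow are descriptions. Osteoclast markers (Acp5, Ctsk, Calcr, Ocstamp, Dcstamp, Mmp9 and Atp6v0d2) were called lower in 7 of 7 cases, against 5.44% of all genes tested. Their summed level was 4652 to 4935 CPM in Ctrl against 473 to 848 CPM in ZM. The log2 folds of the 7 ran from -3.13 (Calcr) to -1.82 (Atp6v0d2), beside -3.28 for Oscar and -3.34 for Siglec15. Acp5 and Ctsk, which encode secreted enzymes of resorbing osteoclasts, had log2 folds of -3.02 and -3.04, and Dcstamp had -1.96. Of 6 macrophage markers, 4 were called higher, against 5.54% of all genes tested. The summed level of the 6, mostly that of Lyz2, was 10080 to 11500 CPM in Ctrl and 18489 to 38454 CPM in ZM, the highest in replicate 3. In bulk RNA, fewer cells of a type and less RNA per cell cannot be told apart, and the part of either in the fall of Oscar and Siglec15 or in the levels of Trem2 and the adaptors was not tested.

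Syk, Btk, Blnk and Plcg2 are also known from B cells, and Fcer1g from mast cells. Among B cell markers, Pax5 and Ebf1 were not listed with a count, and the 5 with a count (Cd79a, Cd79b, Ms4a1, Cd22 and Vpreb1) summed to 3.84 to 4.54 CPM in Ctrl against 4.58 to 8.94 CPM in ZM, most of it Cd22. Mast cell and basophil markers summed to 0.796 to 1.03 CPM in Ctrl against 0.297 to 0.344 CPM in ZM, and T and NK cell markers to 1.27 CPM or less. Neutrophil and stromal markers summed to 3.51 CPM or less in every library. Dendritic cell markers, some of which macrophages share, summed to 166 to 223 CPM in Ctrl against 145 to 252 CPM in ZM. Megakaryocyte markers summed to 5.76 to 8.92 CPM in Ctrl against 18.8 to 38.6 CPM in ZM, nearly all of it Pf4.

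Other receptors of the families that couple to DAP12 or the Fc receptor gamma chain were mostly higher with ZM. Of 22 tested, 14 rose, 1 fell and 7 were not called, with a median log2 fold of 0.74 where all genes tested had a median of 0.00274. Over all genes tested, 5.54% were called higher and 5.44% lower. This list and those that follow were chosen with earlier results of these libraries known. The 4 receptors with the smallest adjusted p were Treml4, Cd300ld, Clec4e and Clec5a. Treml4, a DAP12-associated receptor, rose from 3.83 ± 0.543 to 15.5 ± 3.12 CPM (log2 fold 2.02, adjusted p = 0.00253). Cd300ld rose from 84.6 ± 3.14 to 141 ± 6.58 CPM, Clec4e, the glycolipid receptor Mincle, from 83.5 ± 2.35 to 139 ± 7.66 CPM, and Clec5a, the DAP12-associated lectin MDL-1, from 152 ± 3.33 to 252 ± 16.7 CPM (adjusted p = 0.00482, 0.00487 and 0.00552). The fallen gene was Pira2, at adjusted p = 0.0481, which belongs to a family of near-identical copies whose reads may be split between them, as may those of the Pilrb and Sirpb1 genes. Treml1 and Treml2 were listed for their place beside Trem2 and are not known to use these adaptors. Both are included in the counts and the median, Treml1 among the risen genes (log2 fold 1.58, adjusted p = 0.0342) and Treml2 among those not called. The count of risen receptors was 14 with each of the other scalings, but 2, 5 and 1 without Ctrl replicates 1, 2 and 3, of which Treml4 kept its call without any single library.

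Adaptors outside the pathway were at low levels. Of 2 tested, 1 was called higher, where 5.54% of all genes tested were. Hcst, which encodes DAP10, the adaptor beside Tyrobp that signals through a different motif, rose from 2.77 ± 0.168 to 5.45 ± 1.23 CPM (log2 fold 0.98, adjusted p = 0.0270). The call was lost when any one Ctrl library or ZM replicate 1 was left out (adjusted p = 0.0703 to 0.130). Hcst lies 126 bases from the far more abundant Tyrobp on the opposite strand. The strand setting is not given, so the level of Hcst and its rise are uncertain. Of the others, Cd79b alone passed the filter on low counts, at 0.376 ± 0.159 and 1.06 ± 0.535 CPM (adjusted p = 0.0904).

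Kinases and linkers close to the adaptors moved in both directions. Of 29 tested, 6 rose, 4 fell and 19 were not called, with a median log2 fold of 0.11. The shares over all genes tested were 5.54% called higher and 5.44% lower. Src, the kinase whose loss leaves osteoclasts unable to resorb bone, fell from 223 ± 10.6 to 92.8 ± 21.7 CPM (log2 fold -1.26, adjusted p = 0.00862). Lat, a linker best known from T cells, fell from 10.6 ± 0.0297 to 4.47 ± 0.243 CPM (log2 fold -1.25, adjusted p = 0.00283), and its relative Lat2 from 131 ± 5.07 to 91.7 ± 1.78 CPM (adjusted p = 0.0123). Exons of Lat2 and Rfc2 share 952 bases on opposite strands, so the level of Lat2 is uncertain. Fgr, another Src-family kinase, rose from 44.4 ± 4.38 to 82.1 ± 5.55 CPM (log2 fold 0.89, adjusted p = 0.00548). Lat kept its call without any single library. Fgr lost it without Ctrl replicate 3 (0.0557), Src without Ctrl replicates 1 and 3 (0.0542 and 0.0595), and Lat2 without each Ctrl library (0.0743 to 0.0964). The number of risen genes was 4 without composition factors or with upper-quartile factors, 0 or 1 when any Ctrl library was left out, 1 without ZM replicate 1, and 2 with the replicate block.

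Inhibitory receptors and phosphatases, which oppose ITAM signalling, were mostly higher or not called. Of 24 tested, 12 rose, 2 fell and 10 were not called, with a median log2 fold of 0.42. Without composition factors 9 rose, and with the replicate block 8. Over all genes tested, 5.54% were called higher and 5.44% lower. Pilra, an inhibitory receptor with paired activating relatives, rose from 26.8 ± 1.33 to 76.2 ± 17.5 CPM (log2 fold 1.51, adjusted p = 0.00423). Exons of Pilra (15542 counts in all) and Zcwpw1 (1703 counts) share 468 bases on opposite strands, so part of its level is uncertain. Cd33, counted in this list because it is an inhibitory Siglec in humans, rose from 50.0 ± 3.94 to 133 ± 36.9 CPM (adjusted p = 0.00884). Whether it inhibits in these mouse cells was not tested. Lilrb4a, a receptor with inhibitory motifs, rose from 339 ± 18.5 to 610 ± 103 CPM (adjusted p = 0.0116). Cblb, a ubiquitin ligase that limits signalling by tyrosine kinases, fell from 56.9 ± 1.86 to 27.2 ± 3.21 CPM (log2 fold -1.07, adjusted p = 0.00392). Pilra and Cblb kept the call without any single library, and Cd33 and Lilrb4a lost it without each Ctrl library (adjusted p = 0.0535 to 0.0833). Without Ctrl replicates 1, 2 and 3 there was 1 risen gene in this list each time, and 4 without ZM replicate 1.

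In a list that joined calcineurin and NFAT genes with osteoclast genes, 9 of 15 fell and 6 were not called. The median log2 fold was -1.79, and 5.44% of all genes tested were called lower. The fallen genes were Nfatc1, Itgb3 and the osteoclast markers already given above, which are counted here again. Those not called were Rcan1 and the calcineurin and NFAT genes other than Nfatc1 (Ppp3ca, Ppp3cb, Ppp3r1, Nfatc2 and Nfatc3). These lists were chosen with earlier results of these libraries known, so their directions are descriptions. Atp6v0d2, a proton pump subunit, had the smallest adjusted p (log2 fold -1.82, adjusted p = 9.2e-04).

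**Figure D4:**
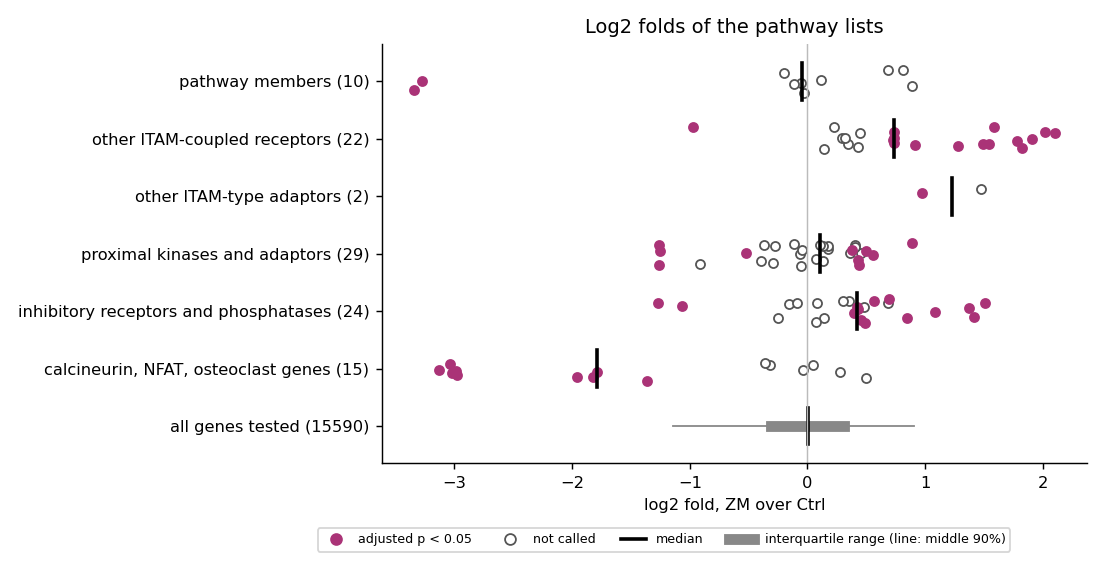
Log2 fold of ZM over Ctrl for the 10 pathway members and 5 related lists, 1 point per tested gene, filled where the adjusted p was under 0.05, with the list median as a black line. The bar at the bottom shows the middle of the distribution over all 15590 genes tested, whose median is 0.00274, and the medians of the lists run from -1.79 to 1.23.

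Genes beside the fallen receptors did not follow a common direction. No exon of any member overlapped an exon of another annotated gene. Ndufa3, a respiratory chain subunit 1215 bases from Oscar on the opposite strand, was at 86.2 ± 4.93 and 98.1 ± 12.2 CPM and was not called (adjusted p = 0.290). Tarm1, the nearest tested gene on the other side of Oscar at 107188 bases, encodes another receptor that couples to the Fc receptor gamma chain and rose from 0.975 ± 0.263 to 2.75 ± 0.604 CPM (log2 fold 1.49, adjusted p = 0.0227). That call was lost when any one Ctrl library or ZM replicate 1 was left out (adjusted p = 0.0707 to 0.111). Next to Siglec15, Epg5 was not called (adjusted p = 0.179). Slc14a2, a urea transporter gene 88752 bases away, fell from 1.45 ± 0.199 to 0.184 ± 0.0324 CPM (log2 fold -2.96, adjusted p = 0.00377).

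**Figure D5:**
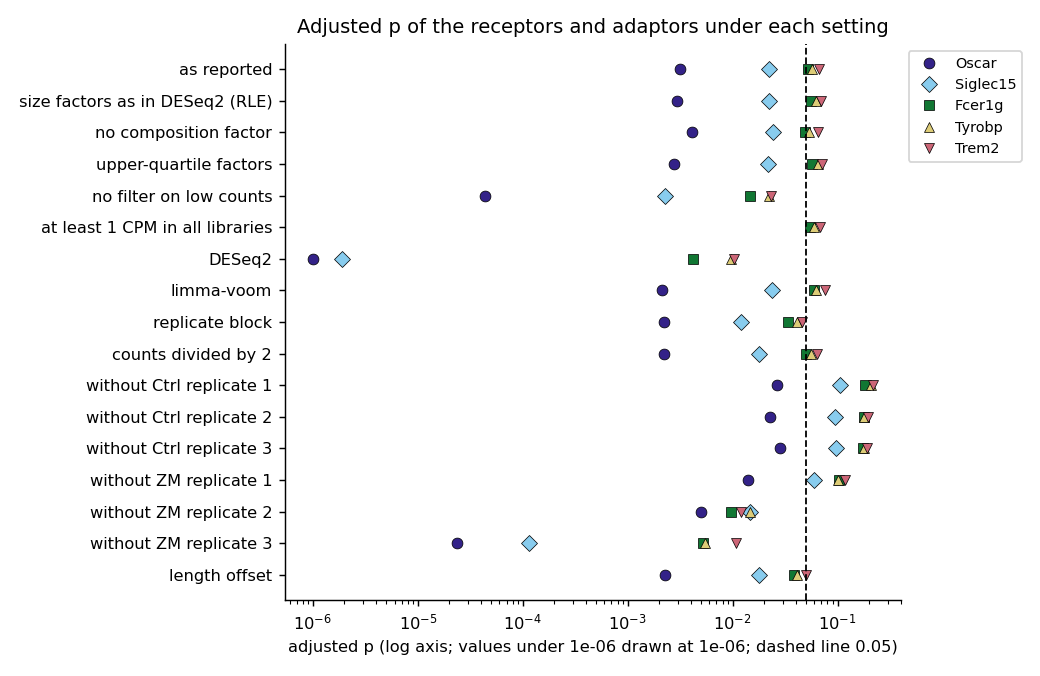
Adjusted p of Oscar, Siglec15, Fcer1g, Tyrobp and Trem2 as reported and under each alternative setting, on a log axis with the threshold of 0.05 dashed. Oscar lies under the threshold in all 15 alternatives that tested it and Siglec15 in 11 of 15, while Fcer1g lies under it in 7 of 16 and Tyrobp and Trem2 in 6 of 16 each.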

How the data were processed

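The deposited table gave whole-number counts per gene and library, not normalized by the authors, and FPKM values, per the file headers. The build was mm10, and DESeq2, Subread, featureCounts 2.0.3 and HISAT2 2.2.1 were named, per the submitters' processing notes. The annotation release, strand setting and filters are not given in the sources used here. Of counts from 1 to 20, 72.7% to 76.4% were even, as counting both mates of each pair would give. The authors' FPKM gave each gene's length (whole within 0.001 bases for 26106 genes) and entered no test.

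The test was edgeR's (version 4.0.16, R 4.3.3) (filterByExpr, TMM, quasi-likelihood F test on group, Benjamini-Hochberg adjustment). The SE is the log2 fold over the square root of F. The test was checked on simulated data. Positions are from GENCODE M21 on GRCm38, where 98.4% of IDs were found, and promoters from RefSeq, where 8 of 10 members matched. Ratios used a pseudocount of 0.1 CPM per kb. Alternatives were other scalings and filters, DESeq2 1.42.0, limma-voom (limma 3.58.1), a replicate block, halved counts, and each library left out. A loess offset against gene length (span 0.5) was added after the data had been seen. Besides the members, Hcst and Nfatc1, named genes were up to 4 called genes with the smallest adjusted p in each list and the neighbours of called members. Pira2, Cd79b, Spi1, Mitf, the other Oscar factors, Treml1, Treml2 and the marker genes are named outside this rule, chosen after their values were seen. The same holds for Itgb3, Rcan1 and the calcineurin and NFAT genes other than Nfatc1. The members and lists were chosen with earlier results of these data known.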

Additional observations from a re-analysis of the deposited data

How the results depend on the processing

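The call of Oscar held in all 15 alternatives that tested it, with log2 folds from -3.66 to -2.97. That of Siglec15 ranged from -4.06 (limma-voom) to -2.81. A minimum of 1 CPM in all libraries removed Oscar and Siglec15, which left 0 members called lower because they were no longer tested. The number of members called higher was 1 without a composition factor (Fcer1g) and 3 with no filter, with DESeq2, with the replicate block and with the length offset. The cause was not tested. Without single libraries it ranged from 0 to 3, and that of members called lower from 1 to 2. Genes called in all numbered 3295 with DESeq2 and 148 to 5023 without single libraries. The called counts of the lists ranged without single libraries from 1 to 16 for other ITAM-coupled receptors, 0 to 3 for adaptors, 1 to 14 for proximal kinases and adaptors, 2 to 19 for inhibitory genes and 1 to 6 for the Oscar factors. DESeq2 called 2 adaptors, and the block 6 proximal kinases and adaptors. The log2 fold of Plcg2 ranged from -0.0542 to 0.000467 without single libraries (0.000467 without ZM replicate 3) and was 0.0266 with the length offset, and that of Syk turned to 0.20 with that offset. Of the fold values of single members under an alternative, 132 kept direction and side of the threshold, 19 gained a call, 4 lost it and 3 reversed. Deviations of same-numbered libraries had r from 0.0306 to 0.107, and those of differently numbered libraries from -0.137 to 0.0889. With 3 libraries per group, these values cannot tell whether same-numbered libraries were paired. The replicate block called 1679 genes, 1360 of them also called without it. The 5 ratio differences kept their sign, but the sizes for Oscar and Siglec15 moved with the pseudocount and with ZM replicate 3, as given beside them. Low counts limit Siglec15, with 1 count in ZM replicate 3.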
